A study of Mus musculus with 10 samples.

Results

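The genes described here are 10 components of the Notch pathway, namely the receptors Notch1, Notch2 and Notch3, the ligands Jag1 and Dll1, the DNA-binding partner Rbpj, and the HES and HEY family factors Hes1, Hes6, Hey1 and Heyl. They were taken by symbol from a count table of 24608 symbols, and all 10 were found in it. The RNA came from muscle satellite cells (MuSCs), the stem cells of skeletal muscle, of adult C57BL6 mice aged 7 to 20 weeks. Control mice were Trpm7+/+; Pax7CreERT2/+; Rosa26YFP and Trpm7 cKO mice were Trpm7flox/flox; Pax7CreERT2/+; Rosa26YFP, so that both genotypes carried the tamoxifen-dependent Cre and the YFP reporter. Both were given tamoxifen for 5 days, which activates Cre in Pax7-expressing cells, and the muscle was then injured with cardiotoxin (CTX). At 3 days after injury, 3000 YFP+ cells were sorted for each of 5 control and 5 Trpm7 cKO libraries. TRPM7 is a membrane channel, permeable to magnesium, fused to a kinase. The comparison asks how the MuSC transcriptome after injury differs when Trpm7 is deleted in these cells.

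Notch receptors are cleaved when a Jagged or Delta-like ligand on a neighbouring cell binds them. The released intracellular domain enters the nucleus, joins RBPJ on DNA and switches on HES and HEY repressors. In MuSCs the pathway is known for holding cells in the quiescent, Pax7-expressing state and for restraining differentiation.

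The CEL-Seq2 method counts molecules at the 3′ end of transcripts by a unique molecular identifier. Control libraries held 914361 to 1097709 counts and Trpm7 cKO libraries 205986 to 581121, so that every Trpm7 cKO library was shallower than every control library. Values are TMM-normalized CPM, that is counts brought to a common library size, tests are the edgeR quasi-likelihood test over 7753 genes, and a gene was called at a Benjamini-Hochberg adjusted p-value below 0.05. The labels do not say that the libraries of a genotype come from separate animals, and the p-values measure the spread between these libraries. Trpm7 itself measured 66.6, 68.2, 90.1, 83.3 and 76.4 CPM in control libraries 1 to 5 and 70.2, 101, 84.0, 46.4 and 55.2 CPM in Trpm7 cKO libraries 1 to 5, and did not pass the test (edgeR log2 fold change -0.09 ± 0.20 SE, adjusted p = 0.723). The sources used here do not place the deleted part of Trpm7 under the 3′-end reads, so that this value does not check the labels. The study itself reports the deletion by genetic analysis, including Trpm7 mRNA of freshly isolated MuSCs, and by TRPM7 staining of MuSCs on myofibers.

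The Trpm7 cKO libraries also held more counts of markers of other cell types. Summed leukocyte markers (14 genes such as Ptprc and Lyz2, none at 0 in any library) measured 243 to 426 CPM in control and 1049 to 4530 CPM in Trpm7 cKO libraries, and all 13 tested were called higher. Summed endothelial markers (10 genes such as Pecam1 and Cdh5) measured 6.44 to 77.6 CPM in control, where 0 to 6 of the 10 were at 0, and 147 to 740 CPM in Trpm7 cKO libraries, and all 3 tested were called higher. Mural markers (7 genes of pericytes and smooth muscle) measured 414 to 669 CPM in control, with 1 to 3 of the 7 at 0. They measured 899 to 1281 CPM in Trpm7 cKO, and both tested were called higher. Most of this sum was Acta2, at 389 to 619 CPM in control and 497 to 1091 CPM in Trpm7 cKO. Fibroadipogenic markers (7 genes) measured 1399 to 2636 CPM and 2463 to 4946 CPM, and 4 of 5 tested were called higher. Of all tested genes, 24.6% were called higher. The filter on low counts asked for 13.37 CPM in 5 libraries, so that markers low in control could be tested through the Trpm7 cKO libraries alone. The leukocyte marker Adgre1 was such a gene (4.0 to 5.8 CPM in control, 14.7 to 91.1 CPM in Trpm7 cKO). The counts of called markers were thus partly set by the filter. The 8 MuSC markers, which check the labelled cell type, were detected in every library at a sum of 3111 to 3717 CPM in control and 2066 to 2929 CPM in Trpm7 cKO. Of those 8, 3 were called higher and 3 lower, with a median log2 fold change of 0.16. Pax7 rose from 206 ± 33.8 to 474 ± 122 CPM (SD, n = 5) while Myod1 fell by 2.01 on the log2 scale. Chrna1, also among the 8, fell from 903 ± 81.4 to 144 ± 31.2 CPM (SD, n = 5). The lower sum therefore does not stand for all 8 markers. Trpm7 cKO libraries 4 and 5 had the highest leukocyte and endothelial sums. In bulk RNA, fewer cells of a type and less RNA per cell cannot be told apart.

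The sequences upstream of RefSeq start sites of the called genes are shown because these genes moved in both directions. Another reason is that RBPJ, the last step of the pathway, binds DNA. Start-site windows of 7 of the 10 genes were matched in the RefSeq table (GRCm38.p6), those of Hes1, Hey1 and Heyl were not. The stretches below are the parts of the 250-base upstream windows that lie outside the annotated exons of the gene itself, written 5′ to 3′ on the gene's strand. Capitals mark the core RBPJ motif TGGGAA (or TTCCCA on the other strand) and the E-box CAGCTG, which reads the same on both strands. No window of these genes held both motifs, so that no matches overlapped.
Notch3, chr17:32166891-32167140, minus strand: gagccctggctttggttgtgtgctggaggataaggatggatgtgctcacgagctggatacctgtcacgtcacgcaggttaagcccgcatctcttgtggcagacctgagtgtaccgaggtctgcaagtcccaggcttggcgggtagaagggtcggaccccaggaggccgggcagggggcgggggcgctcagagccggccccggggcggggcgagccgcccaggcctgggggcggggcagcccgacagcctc
Jag1, chr2:137116645-137116770, minus strand: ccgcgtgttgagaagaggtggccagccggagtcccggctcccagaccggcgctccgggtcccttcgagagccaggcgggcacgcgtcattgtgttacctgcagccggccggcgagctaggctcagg
Dll1, chr17:15375977-15376073, minus strand: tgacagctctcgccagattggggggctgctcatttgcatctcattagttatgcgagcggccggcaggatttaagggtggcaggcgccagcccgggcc
Rbpj, chr5:53590096-53590213, plus strand: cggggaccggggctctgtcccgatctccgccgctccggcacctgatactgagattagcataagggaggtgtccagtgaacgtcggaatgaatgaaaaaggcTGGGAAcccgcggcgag
Hes6, chr1:91413223-91413472, minus strand: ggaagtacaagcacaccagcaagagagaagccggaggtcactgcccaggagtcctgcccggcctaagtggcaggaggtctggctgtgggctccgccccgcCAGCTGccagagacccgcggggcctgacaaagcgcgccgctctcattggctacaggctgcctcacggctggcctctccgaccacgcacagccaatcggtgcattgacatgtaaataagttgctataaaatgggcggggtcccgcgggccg
The Notch3 stretch lay upstream of the whole gene and held neither motif. The Hes6, Rbpj and Dll1 stretches each lay inside the annotated span of the gene but in none of its exons. The E-box in the Hes6 stretch began 150 bases before the start site. In the Rbpj stretch the RBPJ motif began 149 bases before the RefSeq start site. The Dll1 stretch, in which neither motif was found, overlapped an exon of A930024N18Rik on the other strand. In the complete 250-base windows, TGGGAA or its complement was present for Rbpj alone among the 7 genes, against 21.6% of 32851 windows in the table. CAGCTG was present in windows of Hes6, of Jag1 (82 bases before its RefSeq start site, in a stretch not printed because it is exonic in GENCODE) and of a second Dll1 start site, against 13% of the windows. These matches describe letters in the sequence and not binding.

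Of the 10 genes, 9 passed the filter on low counts and 6 of these were called. Notch3, Jag1, Rbpj and Hey1 were higher in Trpm7 cKO MuSCs, and Dll1 and Hes6 were lower, while Notch2, Hes1 and Heyl did not pass the test. Of all 7753 tested genes, 48.7% were called, 24.6% as higher and 24.1% as lower, so that much of the transcriptome differed between the genotypes. The CPM values of 3 of the 9 genes (Jag1, Dll1 and Rbpj) did not overlap between the genotypes, a share close to the 34.5% of all tested genes. With the study's stricter rule, which also asks for a log2 fold change beyond 1.5, Jag1 alone remained, against 12% of all tested genes. The median log2 fold change of the 9 genes was 0.80 and that of all tested genes was -0.01.

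**Figure D1:**
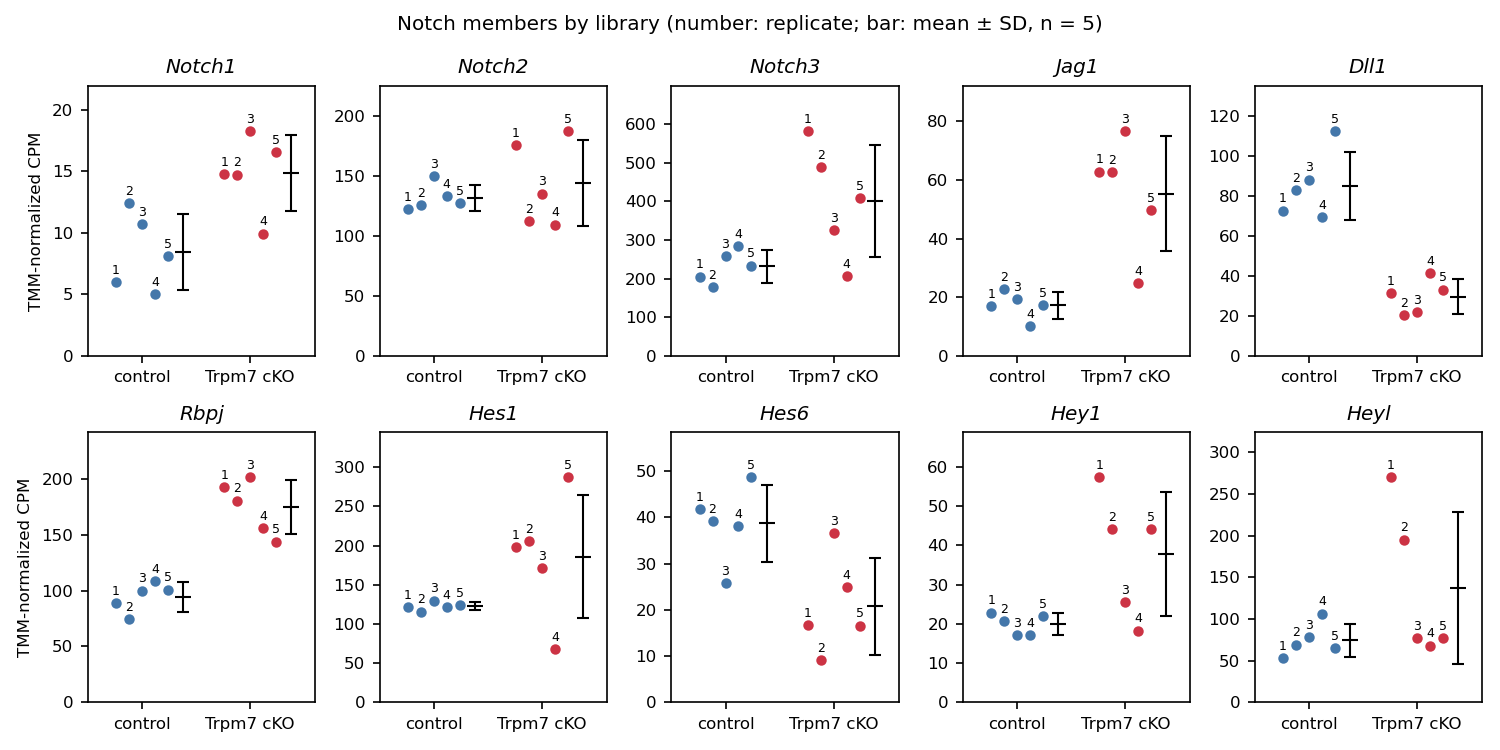
TMM-normalized CPM of each of the 10 genes (vertical axes, each starting at 0) in control (blue) and Trpm7 cKO (red) libraries. Points are libraries with their replicate number and bars are mean ± SD (n = 5). Jag1, Dll1 and Rbpj do not overlap between the genotypes, and Hes1 and Heyl spread more widely among Trpm7 cKO than among control libraries.

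Among the receptors, Notch3 was the most abundant in both genotypes, and it rose in Trpm7 cKO MuSCs. Notch3 (chr17:32120820-32166852, GRCm38) measured 205, 178, 259, 284 and 234 CPM in control libraries 1 to 5 and 582, 488, 325, 206 and 408 CPM in Trpm7 cKO libraries 1 to 5. Libraries 1, 2, 3 and 5 of the Trpm7 cKO lay above every control library, and library 4 lay within the control range. The mean went from 232 ± 42.2 to 402 ± 145 CPM (SD, n = 5), a 1.74-fold increase (edgeR log2 fold change 0.80 ± 0.22 SE, adjusted p = 0.00634). With the leukocyte markers as a covariate the log2 fold change was 1.86 ± 0.48 SE (edgeR, adjusted p = 0.0200). With the endothelial markers it was 1.30 ± 0.405 SE (edgeR, adjusted p = 0.0403). The summed markers of both types did not overlap between the genotypes. Such fits therefore cannot part genotype from cell composition, here or for the genes below. The annotation places Gm17276 on the opposite strand over the 3′ end of Notch3, and the strand setting of the counting is not given in the sources used here.

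Notch3 and Heyl are also known from mural cells. The summed mural markers were 990, 1281, 899, 1259 and 938 CPM in Trpm7 cKO libraries 1 to 5. Library 4, with the lowest Notch3 value of the Trpm7 cKO, had the next to highest mural sum. Acta2 alone measured 880, 1091, 705, 964 and 497 CPM in these libraries, so that the sum mostly follows this gene and not the whole list. The part of mural cells in the Notch3 difference was not tested.

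Notch2 (chr3:98013527-98150361), the receptor next in abundance, did not pass the test. It measured 122, 126, 150.1, 134 and 127 CPM in control and 176, 112, 135, 109 and 188 CPM in Trpm7 cKO libraries. Trpm7 cKO libraries 1 and 5 lay above the control range, 2 and 4 lay below it, and 3 was inside it. The log2 fold change was 0.09 with a 95% interval of -0.25 to 0.44 (edgeR, adjusted p = 0.672).

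Notch1 (chr2:26457903-26516663) had the lowest mean of the 10 genes in both genotypes, with 5 to 12 counts in control and 3 to 8 counts in Trpm7 cKO libraries. This came to 5.97, 12.4, 10.7, 5.02 and 8.10 CPM in control and 14.8, 14.7, 18.3, 9.94 and 16.6 CPM in Trpm7 cKO. The filter asked for 13.37 CPM in 5 libraries, which 4 Trpm7 cKO libraries and 0 control libraries reached, and Notch1 was not among the genes tested. In a fit without the filter its log2 fold change was 0.55 ± 0.42 SE (edgeR, adjusted p = 0.341). Its 3′ end is overlapped on the opposite strand by 0610009E02Rik and Gm13568.

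The ligands moved in opposite directions. Jag1 (chr2:137081456-137116644), a ligand of the Jagged type, measured 16.9, 22.7, 19.3, 10.04 and 17.4 CPM in control and 62.8, 62.6, 76.7, 24.85 and 49.7 CPM in Trpm7 cKO libraries. Every Trpm7 cKO library lay above every control library, with library 4 nearest to the controls. Jag1 rose 3.11-fold, from 17.3 ± 4.64 to 55.3 ± 19.5 CPM (SD, n = 5; edgeR log2 fold change 1.64 ± 0.29 SE, adjusted p = 9.38e-05). These values rest on 10 to 22 counts in control and 9 to 34 counts in Trpm7 cKO libraries. Jag1 is also a ligand of endothelial cells. With the endothelial markers as a covariate its log2 fold change was 2.59 ± 0.55 SE (edgeR, adjusted p = 0.00290). With the leukocyte markers it was 2.26 ± 0.65 SE (edgeR, adjusted p = 0.0350). These fits cannot part genotype from cell composition, and the part of endothelial cells in the Jag1 difference was not tested.

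Dll1 (chr17:15367354-15376872), a Delta-like ligand carried by activated and differentiating myogenic cells, measured 72.6, 82.6, 87.9, 69.3 and 112 CPM in control libraries. In Trpm7 cKO libraries it measured 31.4, 20.2, 21.9, 41.4 and 33.1 CPM, on 6 to 25 counts a library. The highest Trpm7 cKO library lay below the lowest control library. Dll1 fell 2.80-fold, from 84.9 ± 17.0 to 29.6 ± 8.69 CPM (SD, n = 5; edgeR log2 fold change -1.49 ± 0.22 SE, adjusted p = 1.76e-05). With the leukocyte markers as a covariate the log2 fold change was -2.85 (adjusted p = 0.00347).

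Rbpj (chr5:53466152-53657362), which carries the signal of all Notch receptors to DNA, had the smallest standard error among the genes that rose. It measured 88.5, 74.35, 99.7, 108 and 101 CPM in control and 192, 180.3, 201, 156 and 144 CPM in Trpm7 cKO libraries. All 5 Trpm7 cKO libraries, including 4 and 5, lay above the highest control library. The increase was 1.86-fold, from 94.3 ± 13.2 to 175 ± 24.3 CPM (SD, n = 5; edgeR log2 fold change 0.90 ± 0.15 SE, adjusted p = 6.36e-05).

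Hes1 (chr16:30064384-30067796), the best known target of the pathway, had a narrow range in control libraries and was scattered in Trpm7 cKO libraries. The control range, on 107 to 122 counts a library, was no wider than counting error allows and does not show a tightly held level. Hes1 measured 121, 116, 129.8, 122 and 124 CPM in control and 198, 206, 172, 67.9 and 287 CPM in Trpm7 cKO libraries. Libraries 1, 2, 3 and 5 of the Trpm7 cKO lay above the highest control library and library 4 lay below the lowest. The means were 122 ± 5.10 and 186 ± 78.9 CPM (SD, n = 5), and the difference did not pass the test (edgeR log2 fold change 0.55 ± 0.24 SE, adjusted p = 0.0750). The difference passed without Trpm7 cKO library 4 (edgeR log2 fold change 0.77, adjusted p = 0.000227), the only 1 of the 10 fits leaving out 1 library in which it passed. With all libraries it passed under total counts alone (edgeR, adjusted p = 0.0267), a stricter filter (0.0254) or thinned counts (0.0316). It did not pass with DESeq2 (adjusted p = 0.0652), with limma-voom (adjusted p = 0.242) or without a filter (edgeR, adjusted p = 0.167).

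Hes6 (chr1:91411483-91414038), a family member that counteracts HES1 and favours differentiation, moved the other way. It measured 41.8, 39.2, 25.7, 38.15 and 48.6 CPM in control and 16.6, 9.20, 36.5, 24.85 and 16.6 CPM in Trpm7 cKO libraries, on 3 to 15 counts in the latter. The ranges overlapped, since Trpm7 cKO library 3 lay above control library 3. Hes6 fell 1.94-fold, from 38.7 ± 8.31 to 20.8 ± 10.4 CPM (SD, n = 5; edgeR log2 fold change -0.96 ± 0.29 SE, adjusted p = 0.0105). With the leukocyte markers as a covariate the log2 fold change was -2.53 and the adjusted p-value was 0.0549.

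Hey1 and Heyl encode HEY factors that are known for their joint part in keeping MuSCs quiescent. Hey1 (chr3:8663359-8667256) measured 22.9, 20.65, 17.2, 17.1 and 22.0 CPM in control and 57.3, 44.2, 25.6, 18.2 and 44.15 CPM in Trpm7 cKO libraries. All but library 4 of the Trpm7 cKO lay above the control range. Hey1 rose 1.89-fold, from 19.95 ± 2.71 to 37.9 ± 15.75 CPM (SD, n = 5; edgeR log2 fold change 0.92 ± 0.28 SE, adjusted p = 0.0104). Without Trpm7 cKO library 1 the call was lost (log2 fold change 0.65, adjusted p = 0.0804). It was also lost with the leukocyte markers (1.60, adjusted p = 0.154) or the endothelial markers (1.502, adjusted p = 0.0804) as a covariate.

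Heyl (chr4:123233556-123249875) measured 52.7, 69.2, 78.3, 106 and 64.8 CPM in control and 269.8, 195, 76.7, 67.9 and 77.3 CPM in Trpm7 cKO libraries. Trpm7 cKO libraries 1 and 2 stood far above all others, and libraries 3, 4 and 5 lay inside the control range. The means were 74.3 ± 20.2 and 137 ± 90.8 CPM (SD, n = 5), and the difference did not pass the test (edgeR log2 fold change 0.96 ± 0.38 SE, adjusted p = 0.0574). It passed with DESeq2 (adjusted p = 0.0267), and without Trpm7 cKO libraries 4 and 5 in edgeR (log2 fold change 1.32, adjusted p = 0.00604). Of the 10 fits that left out 1 library, Heyl passed in 3. These left out control library 4, Trpm7 cKO library 3 or Trpm7 cKO library 4, at log2 fold changes of 1.13, 1.096 and 1.17. Without Trpm7 cKO library 1 the log2 fold change was 0.54 (edgeR, adjusted p = 0.166). Heyl also passed with the leukocyte markers (2.73, adjusted p = 0.0419) and with the endothelial markers (2.28, adjusted p = 0.0195) as a covariate. It did not pass with limma-voom (adjusted p = 0.0524), or in edgeR with total counts alone (adjusted p = 0.0513) or thinned counts (adjusted p = 0.0722).

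**Figure D2:**
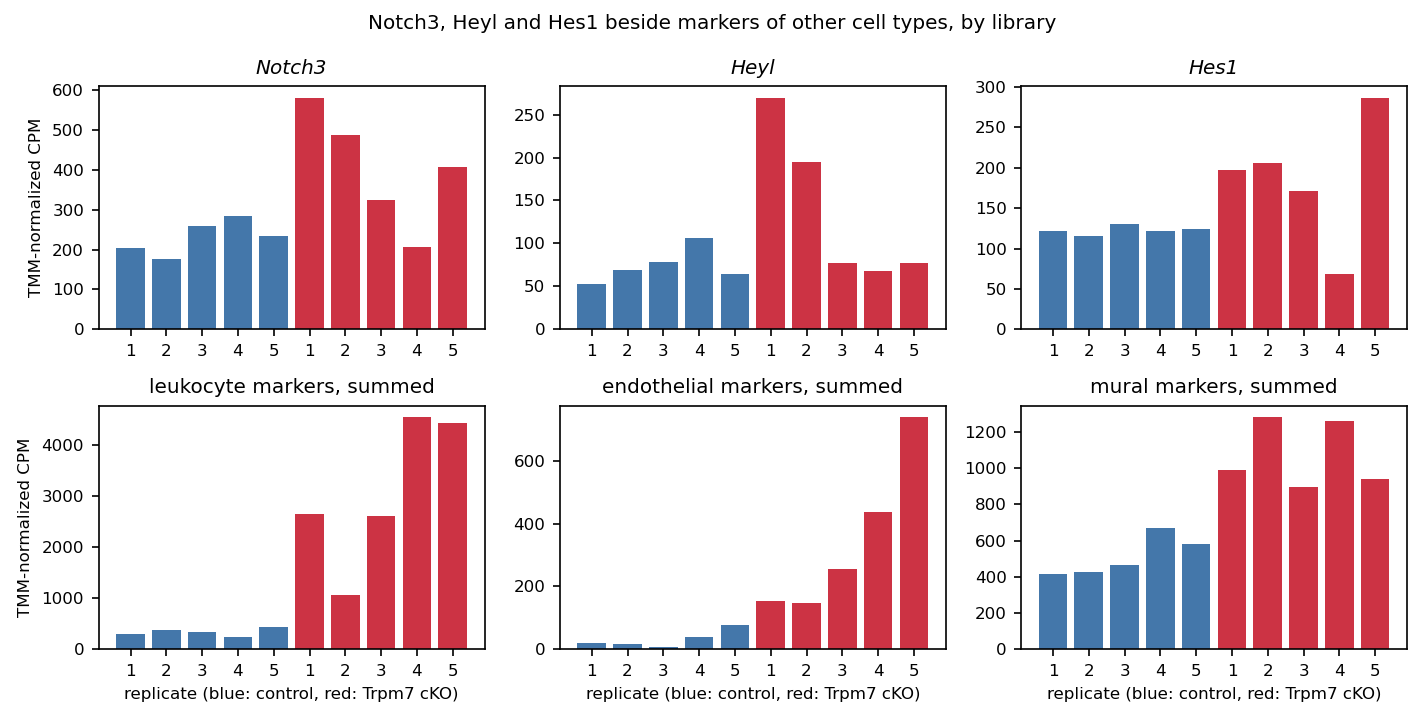
TMM-normalized CPM (vertical axes, from 0) of Notch3, Heyl and Hes1 above the summed CPM of leukocyte, endothelial and mural markers, each bar being a library, with replicates 1 to 5 of the control in blue and of the Trpm7 cKO in red. Trpm7 cKO library 4 has the highest leukocyte sum (4530 CPM) and the lowest Notch3, Heyl and Hes1 values of the Trpm7 cKO, while library 5 has a leukocyte sum of 4415 CPM and the highest Hes1 value.

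The order of the levels also differed between the genotypes. Molecules are counted at 1 end of the transcript, so that transcript length does not enter these levels. In control MuSCs, by mean CPM, Notch3 came first, followed by Notch2, Hes1, Rbpj, Dll1, Heyl, Hes6, Hey1, Jag1 and Notch1. The ranges of the libraries did not overlap between Notch3 and Notch2, between Hes1 and Rbpj, between Heyl and Hes6 or between Hes6 and Hey1, and the other neighbours in this order overlapped. In Trpm7 cKO MuSCs the order was Notch3, Hes1, Rbpj, Notch2, Heyl, Jag1, Hey1, Dll1, Hes6 and Notch1, and every pair of neighbours overlapped. Dll1 thus stood above Jag1 in control MuSCs and below it in Trpm7 cKO MuSCs.

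Shares of counts within a library do not depend on how libraries are scaled, and 5 of them were compared by a two-sided exact permutation test over all divisions of the 10 libraries into 5 and 5, which cannot go below p = 0.00794. Jag1 made up 18.9%, 21.6%, 18%, 12.7% and 13.4% of the Jag1 and Dll1 counts in control libraries and 66.7%, 75.6%, 77.8%, 37.5% and 60% in Trpm7 cKO libraries, on 79 to 112 and 15 to 51 counts. Dll1 was the larger part in every control library and Jag1 in 4 of 5 Trpm7 cKO libraries. The mean share went from 16.9% ± 3.78 to 63.5% ± 16.2 (SD, n = 5; exact p = 0.00794, 0.0397 after adjustment over the 5 shares). Without any 1 of the control libraries the adjusted exact p-value was 0.0595 to 0.0794 and the call was lost. The difference was 45.5 to 47.8 points in these comparisons, against 46.6 points with all libraries, and the exact p-value was 0.0159 in each. The size of the difference thus hardly changed where the call was lost. The Notch3 share of the receptor counts was 61.98% ± 3.97 in control and 70.5% ± 6.62 in Trpm7 cKO (SD, n = 5; exact p = 0.0397, adjusted 0.0992), and did not pass after adjustment, although it did without Trpm7 cKO library 4 (adjusted exact p = 0.0397).

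The Hes6 share of Hes1 and Hes6 counts was 23.9% ± 4.40 in control and 12.4% ± 9.61 in Trpm7 cKO libraries (SD, n = 5; exact p = 0.0714, adjusted 0.119). It was 4.27% to 7.76% in Trpm7 cKO libraries 1, 2 and 5 but 26.8% in library 4, above the control mean, and without library 4 the difference passed (adjusted exact p = 0.0397). Notch1 took 2.33% ± 1.03 and 2.78% ± 0.717 of the receptor counts (SD, n = 5; exact p = 0.429, adjusted 0.536). Heyl took 77.9% ± 6.39 and 76.3% ± 7.65 of the Hey1 and Heyl counts (SD, n = 5; exact p = 0.730, adjusted 0.730). No difference was detectable in these last shares at this depth.

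**Figure D3:**
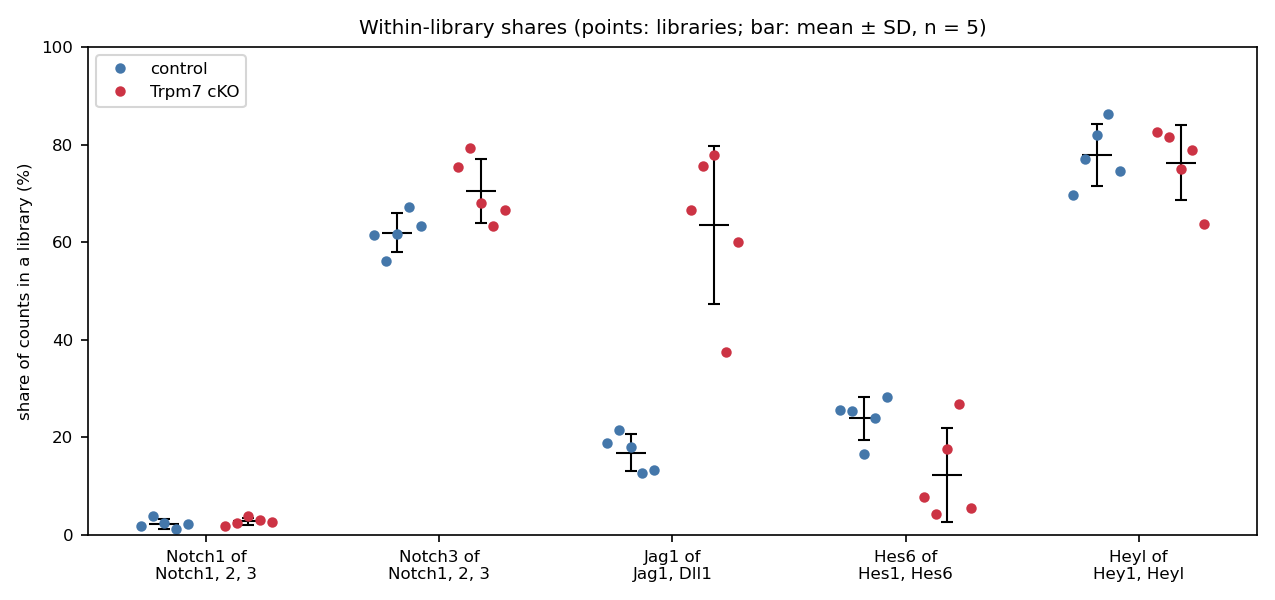
Share of counts in a library (vertical axis, %) for 5 ratios of genes, with control libraries in blue, Trpm7 cKO libraries in red and mean ± SD (n = 5) as bars. The Jag1 share of Jag1 and Dll1 counts runs from 12.7% to 21.6% in control and from 37.5% to 77.8% in Trpm7 cKO libraries, while the other 4 shares overlap between the genotypes.

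The directions of the receptors and of most targets depended on the scale. With libraries scaled on 9 MuSC genes (Pax7, Myf5, Cdh15, Itga7, Vcam1, Sdc4, Cd34, Fgfr4 and Chrdl2), the median log2 fold change of all tested genes was -0.43 and 25.0% of the calls were higher, against 50.6% with TMM. Of these 9 genes, 6 were themselves called higher with TMM and 1 lower, with a median log2 fold change of 0.81, so that this scale depends on the MuSC genes chosen. On that scale Dll1 (log2 fold change -1.89), Hes6 (-1.36), Jag1 (1.17) and Rbpj (0.46, edgeR adjusted p = 0.0456) remained called. Notch3 (0.30, edgeR adjusted p = 0.207) and Hey1 (0.44, adjusted p = 0.166) were no longer called. Hes1 (0.064, edgeR adjusted p = 0.819), Heyl (0.44, adjusted p = 0.186) and Notch2 (-0.35, adjusted p = 0.120) did not pass either. Relative to the median of all genes on that scale, the differences were 0.73 for Notch3, 1.60 for Jag1, -1.46 for Dll1 and 0.89 for Rbpj.

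Counts per 3000 sorted cells gave a median of -1.15 over all genes, with 6.86% of the calls higher. On this scale Dll1 (log2 fold change -2.61), Hes6 (-2.11) and Notch2 (-1.10) were called lower and none of the 9 genes was called higher. Notch3 (-0.35), Rbpj (-0.25) and Hey1 (-0.23) changed sign without passing the test, and Jag1 (0.46, edgeR adjusted p = 0.279) was no longer called. Relative to the median of all genes, Notch3 stood at 0.80, Jag1 at 1.61, Rbpj at 0.90 and Hey1 at 0.92 on this scale, and Dll1 at -1.46. The higher levels given above are thus levels relative to the other RNA of a library. Dll1 and Hes6 were called lower with TMM, with the MuSC list and per 3000 sorted cells. The last scaling makes no correction for depth and carries the lower totals of the Trpm7 cKO libraries, so that it does not measure RNA per cell.

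**Figure D4:**
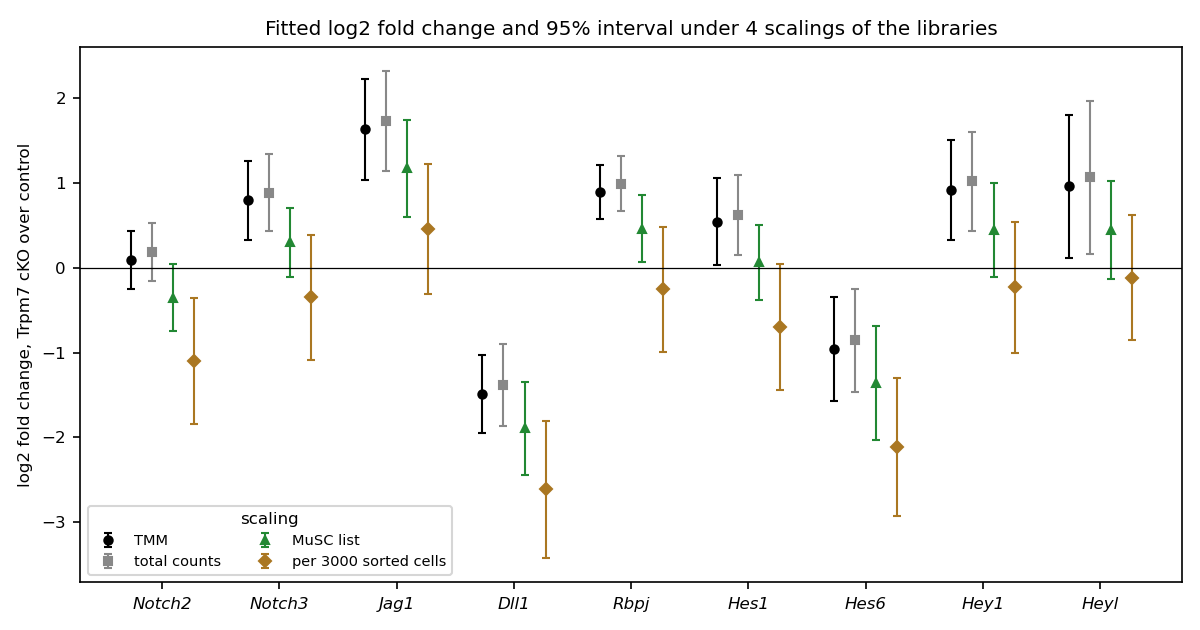
Fitted log2 fold change of Trpm7 cKO over control (vertical axis) with its 95% interval for the 9 tested genes under 4 scalings of the libraries, TMM (black circles), total counts (grey squares), the MuSC list (green triangles) and counts per 3000 sorted cells (brown diamonds). Dll1 and Hes6 lie below 0 with each scaling and Jag1 above 0, with an interval that reaches 0 for counts per sorted cell, while Notch3 and Rbpj go from 0.80 and 0.90 with TMM to -0.35 and -0.25 per 3000 sorted cells.

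The wider pathway was described with a list of 78 genes, which includes the 10 above. Of these, 76 were in the table, 53 were tested and 27 were called, 20 as higher and 7 as lower, with a median log2 fold change of 0.36. This split depended on the scale, with 12 higher and 13 lower on the MuSC list, and 0 higher and 27 lower per 3000 sorted cells. Of all 7753 tested genes, 1044 were higher and 3130 lower on the MuSC list, and 380 higher and 5162 lower per 3000 sorted cells. The shift of the list towards lower calls was thus shared by all genes. Of the 27 genes, 7 reached the filter's CPM in fewer than 5 control libraries and 4 in fewer than 5 Trpm7 cKO libraries, so that these were tested largely through the genotype in which they were high. For the 44 tested genes other than those above, 21 were called, 16 as higher and 5 as lower, with a median of 0.27. The share of genes called was thus close to the background of 48.7%.

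Of the 6 listed ligands 3 were tested, and all 3 were called, against 48.7% of all tested genes. Jag2, another Jagged ligand, was lower, as was Dll1. It went from 24.6 ± 2.25 to 12.6 ± 3.17 CPM (SD, n = 5; edgeR log2 fold change -0.999, adjusted p = 0.00427), on 2 to 7 counts in Trpm7 cKO libraries. Jag2 reached the filter's CPM in 5 control libraries and 1 Trpm7 cKO library, so that it was tested through the genotype in which it was high. Of the 6 tested receptor cleavage genes, Psen2, a catalytic subunit of γ-secretase, was higher (log2 fold change 1.18) and Ncstn, its nicastrin subunit, was lower (-0.60), and 4 were not called. The glucosyltransferase gene Poglut1, whose product modifies the receptors, was higher (0.60), and the other tested sugar transferase was not called.

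Among the 11 tested genes of endocytosis and turnover, 5 were called higher with TMM, against 24.6% of all tested genes. None of those tested was called lower, although Dtx2 (log2 fold change -0.76, edgeR adjusted p = 0.0637), Aak1, Itch and Mib1 had values below 0. On the MuSC list 2 were higher and 4 lower, against 1044 and 3130 of all 7753 tested genes. Per 3000 sorted cells 0 were higher and 5 lower, against 380 and 5162 of all tested genes. Neurl1a, which the filter left out, measured 16.9 ± 4.67 CPM in control and 6.40 ± 2.36 CPM in Trpm7 cKO (SD, n = 5), without overlap. The 5 genes were Numb (log2 fold change 1.20), whose product counteracts the receptors, the ubiquitin ligase genes Dtx3 (0.61), Dtx4 (1.36) and Neurl1b (1.02), and Fbxw7 (1.40), which targets the cleaved receptor for degradation. Numb, Neurl1b and Fbxw7 each reached the filter's CPM in 1 control library. Of the 7 tested genes of the nuclear complex, 5 were higher with TMM, against 24.6% of all tested genes. They were Rbpj, the coactivator Maml1 (1.16) and the acetyltransferase genes Ep300 (0.40), Kat2b (1.08) and Crebbp (0.90). On the MuSC list 3 of the 7 were higher, against 1044 of all 7753 tested genes. Per 3000 sorted cells 0 of the 7 were higher, against 380 of all tested genes. The 13 tested corepressors were divided, with Tle4 (1.54) and Cir1 (1.36) higher, Hdac2 (-1.40), Ctbp1 (-0.61) and Tle1 (-0.86) lower, and 8 not called. Cir1 reached the filter's CPM in 1 control library, and Tle1 in 3 Trpm7 cKO libraries.

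Tle4, a Groucho-type corepressor that HES factors recruit, measured 4.97, 7.23, 8.58, 19.1 and 23.2 CPM in control and 27.7, 38.6, 58.5, 31.5 and 33.1 CPM in Trpm7 cKO libraries. The genotypes did not overlap, and Tle4 reached the filter's CPM in 2 control and 5 Trpm7 cKO libraries (edgeR log2 fold change 1.54 ± 0.36 SE, adjusted p = 0.00131).

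Collagens of types V and VI and the calcitonin receptor gene Calcr are known as Notch targets or partners in quiescent MuSCs. Col5a3 measured 37.8, 54.7, 52.6, 45.2 and 50.9 CPM in control and 231, 230.03, 179, 87.8 and 155 CPM in Trpm7 cKO libraries. Every Trpm7 cKO library lay above every control library, and library 4 was again the lowest of the Trpm7 cKO (edgeR log2 fold change 1.88 ± 0.22 SE, adjusted p = 1.59e-06). Col5a1 (1.41) and Col6a1 (1.41) rose as well, and the other tested collagens, Col5a2 and Col6a2, did not pass the test. Calcr had 3 to 6 counts in control and 4 to 28 counts in Trpm7 cKO libraries, and was below the filter, at 4.17 ± 1.34 and 43.3 ± 23.6 CPM (SD, n = 5). Fibroadipogenic cells are also rich in collagens, their summed markers were higher in the Trpm7 cKO libraries as given above, and their part in these differences was not tested. Per the study, the cells were sorted as YFP-positive, and its protocol for uninjured muscle also stains Sca-1, CD45 and CD31, markers of fibroadipogenic, blood and endothelial cells, and collects CD106-positive cells. The sources used here do not say whether those antibodies were used after injury.

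Some pathway genes known from endothelial cells had few counts, most of them in the Trpm7 cKO libraries. Notch4 and Hey2 had 0 counts in every control library and at most 2 counts in a Trpm7 cKO library, 4 and 6 in sum. Dll4, a ligand of arterial and sprouting endothelium, had at most 1 count in control and at most 4 counts in Trpm7 cKO libraries. Its sums were 2 in control and 11 in Trpm7 cKO libraries. Apart from these endothelial genes, Hes5 of the HES family had 0 counts in all 10 libraries. None of these reached the filter, and no fold is given at these counts.

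**Figure D5:**
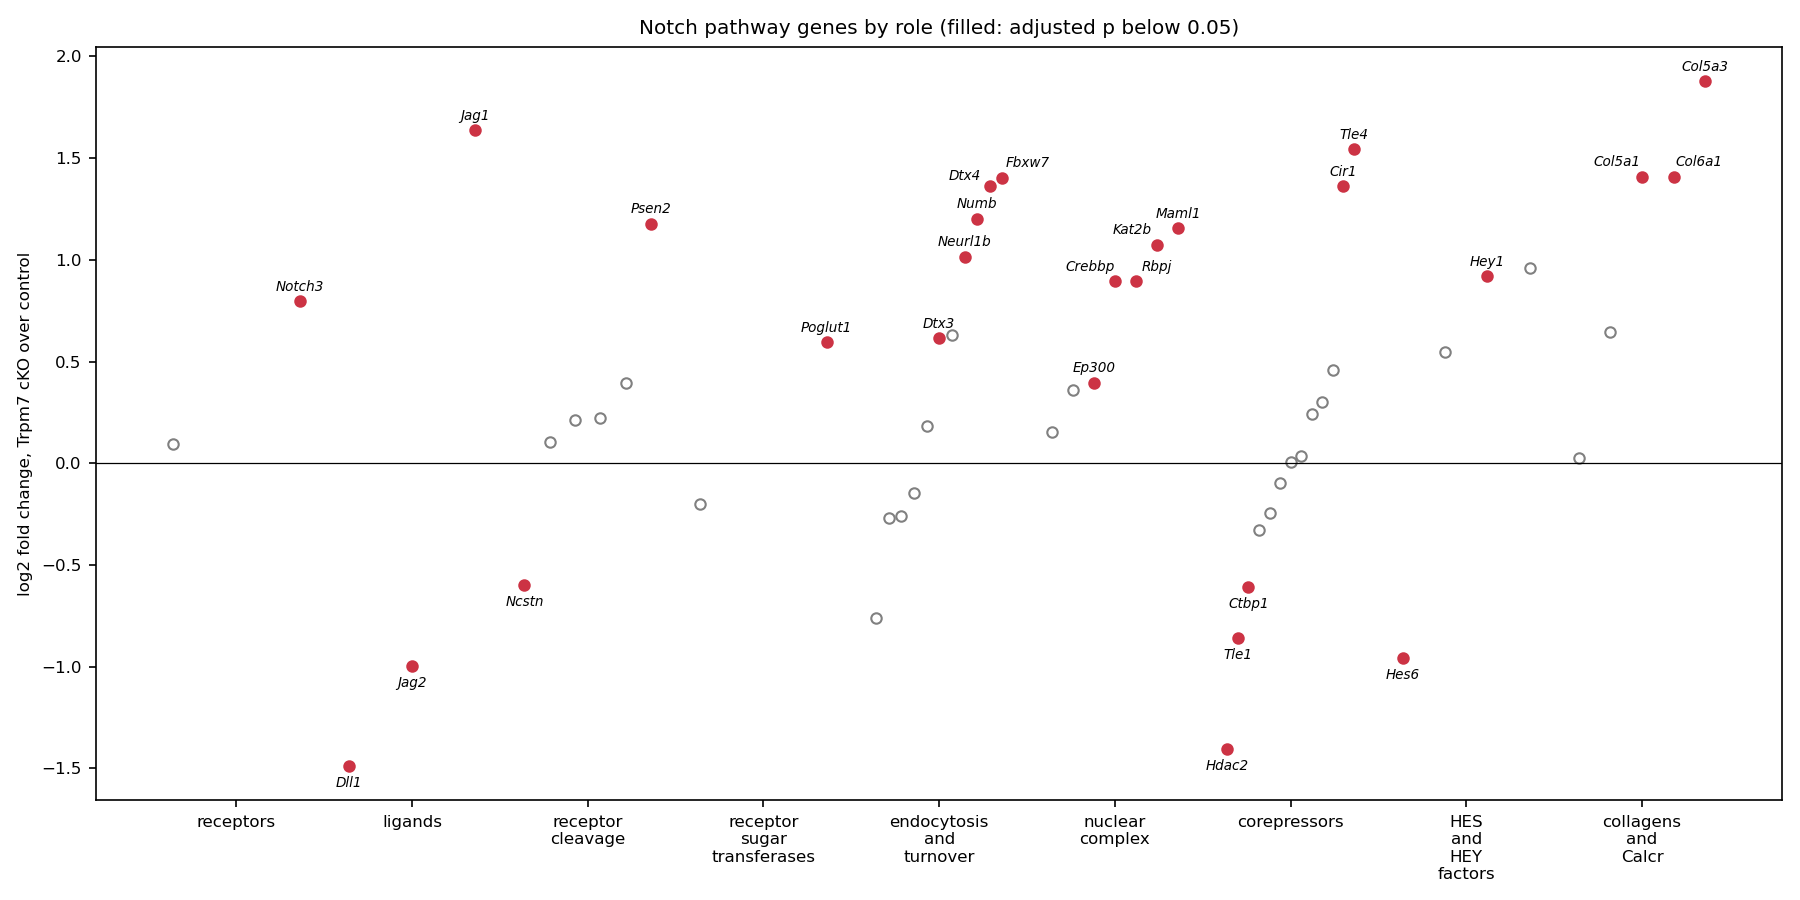
Log2 fold change of Trpm7 cKO over control (vertical axis) for the 53 tested genes of the Notch pathway list, grouped by role along the horizontal axis and ordered by value within a role. Filled points passed the test at an adjusted p-value below 0.05 and carry their names, and open points did not. With TMM scaling, the nuclear complex and the turnover genes have called genes above 0 and none below among those tested, whereas ligands and corepressors have both.

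Genes whose log2 CPM most resembled that of the gene with the highest mean CPM over the 10 libraries in each role were found by Pearson correlation over the 10 libraries, which share genotype, depth and cell composition, so that these values are descriptions. For Notch3 these were Mpdz (r = 0.983), Abca8a (0.969) and Megf10 (0.963), the last a receptor gene of myogenic cells. For Dll1 they were Ube4a (0.981), Chordc1 (0.979) and Lrrc17 (0.969). For Rbpj they were Anxa5 (0.981), Ttc28 (0.97) and Arhgap6 (0.968). For Hes1, whose pattern is set by its scatter among Trpm7 cKO libraries, they were Spsb1 (0.937), Epc2 (0.929) and Zeb1 (0.925). Mpdz, a scaffold protein gene, measured 96.1, 86.5, 62.1, 34.8 and 66.2 CPM in the Trpm7 cKO libraries and so followed Notch3 in having its lowest value in library 4.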

How the data were processed

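3′-end RNA-seq of MuSCs was analysed in 5 control and 5 Trpm7 cKO libraries. Per the submitters' processing notes and the methods, the authors extracted identifiers with UMI-tools 1.1.4, trimmed reads with Trim Galore 0.6.10, aligned reads of 81 bases to GRCm38 with HISAT2 2.2.1, counted them with featureCounts 2.0.6 and removed duplicate molecules, and they deposited whole-number counts per gene not normalized. Which annotation release was used, and whether counting used strand, is not given in the sources used here. The notes also list DESeq2 1.30.1, for the study's own tests.

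Of 24620 entries, 12 repeated a symbol, and the entry with the larger total was kept. Counts were tested with edgeR 4.0.16 in R 4.3.3 (filterByExpr with a minimum count of 10 and a minimum total of 15, TMM, robust quasi-likelihood F test, genotype as the only term), with Benjamini-Hochberg adjustment over 7753 genes. Totals of 205986 to 1097709 limit the precision of low genes. The SD of the shares is the spread between libraries, which includes counting error. Counting noise was exceeded between all libraries of the same genotype (chi-square per degree of freedom 1.47 to 8.12). The library names of Trpm7 cKO 4 and 5 share a number of unstated meaning. Gene positions came from the GENCODE annotation of GRCm38, and no match of 31 bases to other genes was found in the last 500 bases of the 10 genes. Sequences came from RefSeq.

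The genes named are all 10 genes of the set, pathway genes called beyond a log2 fold change of 1.5, and the 3 closest genes by correlation for the gene of each role with the highest mean CPM. Other pathway genes are named as counted members of their list, of which Nrarp and Hes2 were not analysed here. The genes, lists and tests were chosen with earlier results of these data known. Alternatives were DESeq2 1.42.0, limma-voom 3.58.1, other scalings and filters, thinned counts, marker covariates, the replicate block and leaving out libraries. The tests were tested on simulated data.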

Additional observations from a re-analysis of the deposited data

How the results depend on the processing

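The most direct limits were depth and composition. Each Trpm7 cKO library had a lower total and higher leukocyte, endothelial and mural marker sums than each control library, and genotype, depth and composition cannot be told apart from these data. Counts under 10 in single libraries (Notch1, Jag1, Dll1, Hes6 and Hey1) carry wide counting error.

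With TMM, 6 of the 10 genes were called. The number was 3 for counts per 3000 sorted cells and 1 with a log2 fold change beyond 1.5 as well, and 5 to 8 when 1 library was left out. Of the pathway list 27 genes were called with TMM, 24 to 31 with 1 library left out, 15 after thinning to the smallest library (31 genes tested), 8 with the leukocyte covariate and 12 with the endothelial covariate. The latter covariate and the fit without Trpm7 cKO libraries 4 and 5 were chosen after seeing the data. The leukocyte covariate left 598 calls over all genes, against 3774 without it. Dll1 and Rbpj stayed called in all 10 fits that left out 1 library (log2 fold change -1.71 to -1.35 and 0.83 to 0.95), as did Jag1 (1.49 to 1.86), Notch3 (0.59 to 0.96) and Hes6 (-1.17 to -0.73).

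Signs changed for Notch2, to -0.35 on the MuSC list, -0.11 without a filter, -0.18 with the leukocyte covariate and -0.042 without Trpm7 cKO library 1 (range over left-out libraries -0.042 to 0.17). Per 3000 sorted cells they changed for Notch2 (-1.10), Notch3 (-0.35), Rbpj (-0.25), Hes1 (-0.70), Hey1 (-0.23) and Heyl (-0.11), since that scaling carries the lower totals of the Trpm7 cKO libraries. Hes1 also passed with total counts alone (0.63), the stricter filter (0.72), thinning (0.73), libraries 4 and 5 summed (0.48) and without both (0.63), and Heyl with the stricter filter (1.13). Neither Hes1 nor Heyl passed with limma-voom, without a filter, with the replicate block or on the MuSC list.

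The Notch3 share difference, 8.54 percentage points, passed after thinning (11.3), with Trpm7 cKO libraries 4 and 5 summed (9.81) and without them (12.2), and ranged from 6.33 to 10.35 with 1 library left out, passing without library 4. The Jag1 share difference, 46.6 points, ranged from 43.0 to 53.1. Its adjusted exact p-value was 0.0595 to 0.0794 in the 5 comparisons without a control library, at differences of 45.5 to 47.8 points. The Hes6 share difference was -12.5 points with libraries 4 and 5 summed and -15.2 to -9.53 with 1 library left out, passing with the summed libraries and without library 4, but not without both (-14.1, adjusted exact p = 0.0595). The Heyl share difference, -1.62 points, changed sign after thinning (0.362), with counts summed by genotype (1.31), with libraries 4 and 5 summed (0.414) and without them (1.75), and ranged from -3.67 to 1.54. The cause of these changes was not tested.

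Replicate numbers are shared by the genotypes but did not pair libraries, since deviations of same-numbered libraries correlated at -0.118 to 0.181 and library 5 alone matched its own number best. The replicate block left 6 of the 10 genes and 26 pathway genes called, and 3572 against 3774 over all genes. For the Jag1 share the block gave 46.6 points with an exact p = 0.0625, the smallest that 32 sign changes allow.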
